A study of Mus musculus with 2 samples.

Results

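Delta-like 4 (DL4) is a ligand of the Notch receptors. Binding frees the intracellular part of the receptor, which joins the DNA-binding factor RBPJ and turns on targets such as *Hes1*, *Nrarp* and *Dtx1*. In blood progenitors this signal starts the T-cell program: *Tcf7* and *Gata3* come on early, progenitor factors such as *Lmo2* and *Mef2c* are turned off, and the chains of the CD3 complex and the commitment factor *Bcl11b* follow. The cells described here were picked at the first of these steps, with transcripts of the early Notch side and before *Cd3g*.

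They were found in single-cell RNA-seq of hematopoietic stem and progenitor cells (HSPCs) from the livers of wild type CD1 mouse embryos at E13.5. Cells depleted of TER-119 and sorted as Sca-1+ cKit+ were grown on plates coated with 10 µg/mL of DL4 and 2.32 µg/mL of VCAM-1, an adhesion molecule that binds integrins, with 1000 cells seeded per well. The series holds 2 droplet libraries, FL001 and FL002, both with this coating, and no control culture without DL4. Nothing in the labels says whether the libraries came from separate cultures or litters. The study pooled cells taken straight after sorting with cells from later days of culture, and the sources used here do not say which library holds which, so time in culture and library cannot be told apart.

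A droplet barcode was kept if it held 1500 or more unique molecular identifiers (UMIs, each standing for 1 counted transcript) from 500 or more genes, with no more than 10% of them mitochondrial. Of the 5888 barcodes kept, 1788 were from FL001 and 4100 from FL002. The cells described were selected on raw UMIs: at least 2 UMIs of *Tcf7*, *Hes1*, *Notch1* and *Gata3* summed, at most 2 of *Cd3g*, none of *Il2ra*, at most 1 of *Lmo2* and *Mef2c*, at most 2 of *Id2*, none of *Ptcra*, *Lef1* and *Bcl11b*, at most 1 of *Gzma*, *Khdc1a* and *Nrgn*, and fewer than 10 of the myeloid genes *Elane*, *Ctsg*, *Prtn3*, *Ms4a3*, *Lyz2* and *S100a8*. This left 145 cells, called Notch-side cells here after the first sum. They were 32 of FL001, 1.79% (95% exact binomial interval 1.23 to 2.52), and 113 of FL002, 2.76% (2.28 to 3.30). Intervals cover counting error only, and paired values are given for FL001 and then FL002.

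Notch-side cells were set beside 2 other classes of kept barcodes, within each library. *Lmo2*/*Mef2c* barcodes, with at least 2 UMIs of these genes, numbered 449 in FL001 and 793 in FL002 and are called progenitors here for those genes. *Cd3g* barcodes, with at least 3 UMIs of *Cd3g*, numbered 972 and 2225. Both limits were met by 14 and 52 barcodes, none of them a Notch-side cell. UMIs were summed over the cells of a class and scaled to a class total of 1000000 (CPM), with 95% exact Poisson intervals. Cells of a library are not replicates and the same UMIs chose the classes, so no test was made. A gene is called higher or lower where CPM + 10 differed at least 2 times in the same direction in both libraries and the gene had at least 20 CPM in either class in both libraries, and the 21 genes of the rule are left out of every count. A gene under 20 CPM in 1 class is measured only if it is higher in the other, which fixes the direction of its ratio there, so such genes are counted apart below and their number supports nothing.

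The depth of the classes was alike within FL001, with medians of 7575.5 UMIs in Notch-side cells, 8177 in *Lmo2*/*Mef2c* barcodes and 7729 in *Cd3g* barcodes. In FL002 the medians were 4324, 5750 and 4338. Thinned to 1500 UMIs, Notch-side cells had a median of 891 genes in FL001 and 857 in FL002, against 873 and 861 in *Lmo2*/*Mef2c* barcodes and 880 and 864 in *Cd3g* barcodes. Notch-side cells held 251705 UMIs in FL001 and 509031 in FL002, so that 20 CPM stands for 5.03 and 10.2 UMIs. UMIs of both *Xist* and a Y-linked gene, a sign of 2 cells under 1 barcode, were found in 0 of 32 and 4 of 113 Notch-side cells, the latter 3.54%, against 3.53% of *Lmo2*/*Mef2c* and 2.56% of *Cd3g* barcodes in FL002. Of 10 barcodes kept in both libraries, 1 was a Notch-side cell, in FL001.

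The 4 genes of the first sum entered the class unequally. Across the 145 cells, *Notch1*, the receptor, had a UMI in 95, *Tcf7*, the transcription factor TCF-1, in 85, *Hes1*, a Notch-induced repressor, in 79, and *Gata3*, a zinc finger factor of T cells, in 33. A single gene of the 4 supplied the sum in 33 cells, 2 genes did so in 84, 3 in 21, and all 4 in 7. The median sum was 3 UMIs and the highest 14. Just inside the limit, 61 cells had a sum of 2, and 113 barcodes that met every other limit had a sum of 1. At the other limits, 86 cells had the 1 UMI of *Gzma*, *Khdc1a* and *Nrgn* that was allowed and 63 barcodes were left out with 2, and 61 cells had the 1 UMI of *Lmo2* and *Mef2c* that was allowed and 45 barcodes were left out with 2. *Cd3g* stood at its limit of 2 UMIs in 13 cells, and 3 barcodes with 3 UMIs were left out. The class is thus a window in a spread of low counts, with many barcodes near its borders.

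As levels, *Tcf7* had 191 (141 to 253) CPM in FL001 and 257 (215 to 305) in FL002, against 31.8 and 58.1 in *Lmo2*/*Mef2c* barcodes and 293 and 411 in *Cd3g* barcodes. *Hes1* had 131 (90.2 to 184) CPM in FL001 and 191 (155 to 232) in FL002, against 30.3 and 43.8 in progenitors and 107 and 156 in *Cd3g* barcodes. *Notch1* had 139 (96.9 to 193) CPM in FL001 and 218 (179 to 263) in FL002, against 71.1 and 72.3 in progenitors and 184 and 185 in *Cd3g* barcodes. *Gata3*, with 59.6 (33.4 to 98.3) CPM in FL001 and 49.1 (31.8 to 72.5) in FL002, stood between 16.9 and 19.6 in progenitors and 101 and 100.1 in *Cd3g* barcodes. These values describe how the cells were picked. Barcodes of 1 to 100 UMIs, which hold mainly free RNA, had 179.7 and 257 CPM of *Tcf7*, 134 and 191 of *Hes1*, 121 and 136 of *Notch1* and 77.2 and 78.3 of *Gata3*, so a UMI of these genes in 1 cell can come from free RNA, and its part in the choice of cells was not tested. The same barcodes had 1880.5 and 1537 CPM of *Cd3g*, against 43.7 and 78.6 in Notch-side cells.

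**Figure D1:**
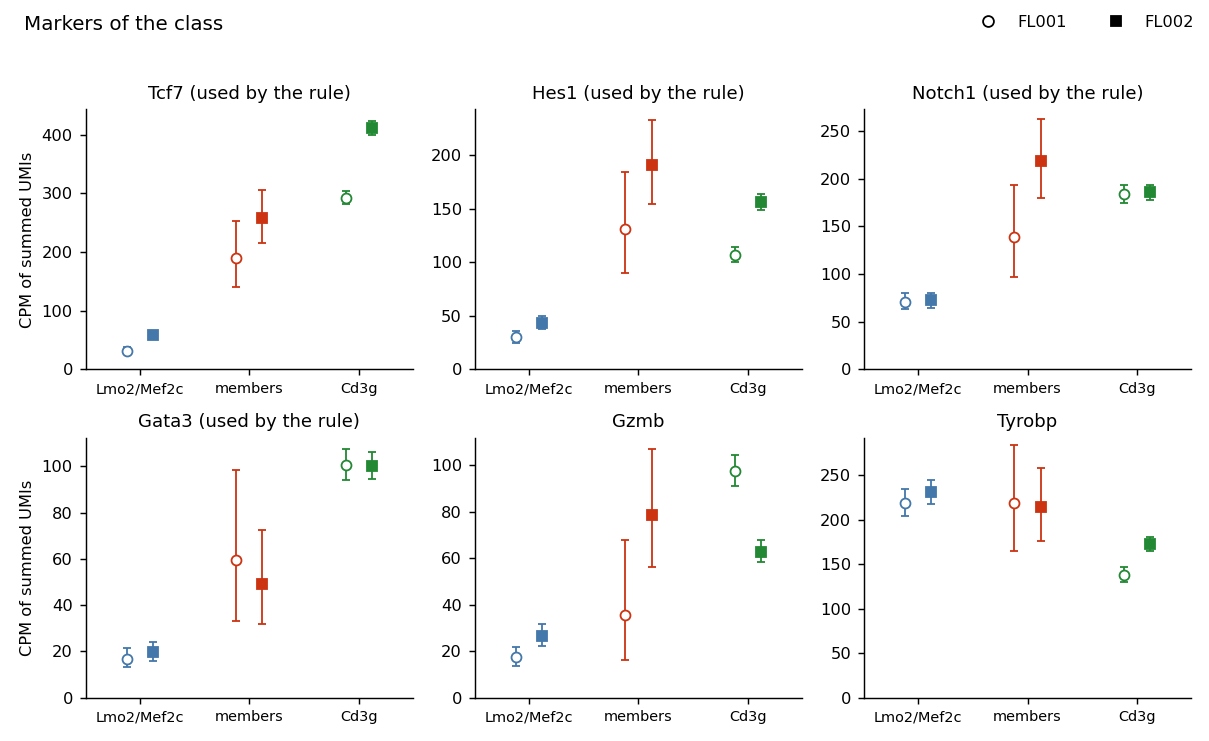
Levels (CPM of summed UMIs, vertical axes from 0) of the 6 markers of the class in *Lmo2*/*Mef2c* barcodes, Notch-side cells (members) and *Cd3g* barcodes; circles are FL001, squares FL002, bars 95% exact Poisson intervals. The rule used *Tcf7*, *Hes1*, *Notch1* and *Gata3* and did not use *Gzmb* and *Tyrobp*, and *Tyrobp* lay at 219 and 214 CPM in Notch-side cells and at 219 and 231 in *Lmo2*/*Mef2c* barcodes.

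The label of the class names 2 further markers that the rule did not use, and neither passed the threshold against *Lmo2*/*Mef2c* barcodes. *Gzmb*, which encodes the protease granzyme B, had 35.8 (16.4 to 67.9) CPM in FL001 and 78.6 (56.1 to 107) in FL002, from 9 and 40 UMIs. Its level was 17.4 and 26.5 CPM in *Lmo2*/*Mef2c* barcodes, a ratio of 2.05 (0.901 to 4.13) and 2.97 (2.03 to 4.27), and 97.4 and 62.7 in *Cd3g* barcodes, a ratio of 0.367 (0.167 to 0.70003) and 1.25 (0.887 to 1.72). The interval against the progenitors includes no difference in FL001, where 1 cell held 6 of the 9 UMIs. Without the cell with most *Gzmb* in each library the levels were 12.4 (2.55 to 36.2) and 55.5 (36.9 to 80.2) CPM, an interval that holds the progenitors' value in FL001 and lies over it in FL002. Against *Cd3g* barcodes the direction differed between the libraries. A UMI of *Gzmb* was found in 12.5% and 14.2% of Notch-side cells, 5.79% and 6.56% of *Lmo2*/*Mef2c* and 19.0% and 11.1% of *Cd3g* barcodes, and near-empty barcodes had 78.3 and 65.8 CPM.

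*Tyrobp*, the signalling adaptor DAP12 of natural killer and myeloid cells, had 219 (165 to 284) CPM in FL001 and 214 (176 to 258) in FL002. *Lmo2*/*Mef2c* barcodes had 219 and 231 CPM, a ratio of 0.998 (0.746 to 1.31) and 0.927 (0.754 to 1.13), and *Cd3g* barcodes 138 and 172, a ratio of 1.58 (1.18 to 2.07) and 1.24 (1.01 to 1.51). *Tyrobp* did not set Notch-side cells apart from the progenitors, and its use as a marker against them is not borne out by these levels. The progenitors kept myeloid barcodes that the rule removed from Notch-side cells. Without comparison barcodes that met the *Cd3g* limit or held 10 or more myeloid UMIs, the mean log2 ratio was 0.24, against -0.05 with them.

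*Nrarp* and *Dtx1*, Notch targets outside the rule, were higher than in the progenitors. *Nrarp*, a feedback inhibitor of Notch signalling (chromosome 2, 25180758 to 25183339, GRCm38), had 123 (83.7 to 175) CPM in FL001 and 161 (128 to 199.96) in FL002, against 50.5 and 53.3 in *Lmo2*/*Mef2c* barcodes and 216 and 206 in *Cd3g* barcodes. The ratio to *Lmo2*/*Mef2c* barcodes was 2.44 (1.62 to 3.58) and 3.02 (2.33 to 3.89). *Dtx1*, the ubiquitin ligase Deltex 1 (chromosome 5, 120680202 to 120711927), had 63.6 (36.3 to 103) CPM in FL001 and 94.3 (69.5 to 125) in FL002, against 21.4 and 32.9 in progenitors and 123 and 88.7 in *Cd3g* barcodes, a ratio to *Lmo2*/*Mef2c* barcodes of 2.96 (1.62 to 5.10) and 2.86 (2.03 to 3.98). Against *Cd3g* barcodes neither gene was called, with ratios of 0.570 (0.386 to 0.813) and 0.784 (0.621 to 0.977) for *Nrarp* and 0.517 (0.295 to 0.844) and 1.06 (0.778 to 1.42) for *Dtx1*. A UMI of *Nrarp* was found in 46.9% and 44.2% of Notch-side cells, against 20.7% and 19.4% of *Lmo2*/*Mef2c* barcodes, whose median depth was higher. Near-empty barcodes had 143 and 186 CPM of *Nrarp* and 68.3 and 64.0 of *Dtx1*. With 5% of each class's UMIs subtracted in the proportions of near-empty barcodes, all 23 genes higher than in *Lmo2*/*Mef2c* barcodes kept their call. An equal share taken from both classes moves most ratios away from 1. It could thus hardly end a call and does not show whether free RNA matters, and larger shares were not tried. With the cell with most UMIs of the gene left out in each library, both calls ended, at log2 ratios of 0.97 and 1.39 for *Nrarp* and 0.998 and 1.176 for *Dtx1*. With myeloid and *Pf4* barcodes, as counted further on, taken out of the *Lmo2*/*Mef2c* class instead, *Dtx1* kept its call and *Nrarp* did not, at log2 ratios of 0.88 and 1.35, where a call needs 1 in both libraries.

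No other measured gene of the Notch pathway was called. Of 28 genes on a list of Notch receptors, targets and processing enzymes, 26 were outside the rule and 12 had enough UMIs to be measured against *Lmo2*/*Mef2c* barcodes. *Nrarp* and *Dtx1* were called higher and none lower, where 0.419% of the 5490 genes measured were higher and 0.82% lower. The list's median log2 ratio was -0.11 and 0.23 in FL001 and FL002, beside 0.02 and -0.01 over all genes. Low targets were not measurable by that limit: *Hes5* had 19.9 and 15.7 CPM, from 5 and 8 UMIs, against 3.03 and 3.33 in *Lmo2*/*Mef2c* barcodes, and *Hey1* had 3.97 and 17.7 against 3.28 and 4.38. *Notch2* and *Notch3*, the other receptors detected, had 0 and 13.8 CPM and 0 and 9.82 CPM in FL001 and FL002, and *Notch4* and *Heyl* had no UMI in any Notch-side cell. *Rbpj*, the DNA-binding partner, had 19.9 and 23.6 CPM, against 30.0 and 32.1 in progenitors and 31.9 and 36.4 in *Cd3g* barcodes. *Mfng*, which adds sugars to Notch receptors, had 103 and 58.9 CPM, near 110.0 and 92.1 in the progenitors and above 36.4 and 37.9 in *Cd3g* barcodes without a call. Against *Cd3g* barcodes, 12 genes of the list were measured and none was called in either direction, where 0.387% of 5430 genes were higher and 1.49% lower.

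Among T-cell receptor genes, *Trbc2* was near the level of *Cd3g* barcodes, *Cd3d* and *Cd3e* were near that of the progenitors, and *Trbc1* and *Tcrg-C4* lay in between. *Trbc2*, a constant region of the T-cell receptor beta chain (chromosome 6, 41546730 to 41548352), had 1835 (1672 to 2011) CPM in FL001 and 2094 (1970.3 to 2224) in FL002. *Lmo2*/*Mef2c* barcodes had 592 and 689 CPM, a ratio of 3.10 (2.80 to 3.43) and 3.04 (2.83 to 3.26), and *Cd3g* barcodes 1779 and 1865, a ratio of 1.03 (0.938 to 1.13) and 1.12 (1.05 to 1.19). It was found in 87.5% and 94.7% of Notch-side cells, 46.1% and 53.8% of *Lmo2*/*Mef2c* barcodes and 98.8% and 98.5% of *Cd3g* barcodes, and at 1350.3 and 1634 CPM in near-empty barcodes, close to its level in Notch-side cells. Its call against *Lmo2*/*Mef2c* barcodes was kept without the highest cell of each library. It was also kept with 5% free RNA subtracted, which could hardly have ended it. *Trbc1*, the other beta constant region, was between the classes, with 187 and 183 CPM against 74.4 and 78.8 in progenitors and 489 and 468 in *Cd3g* barcodes, and was called higher than in the one and lower than in the other. *Trbc1* and *Trbc2* are near-identical copies, so their reads could have been split between them.

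*Cd3d* and *Cd3e*, which encode CD3 chains, were near 0. *Cd3d* had 3.97 (0.101 to 22.1) CPM in FL001 and 15.7 (6.79 to 31.0) in FL002, from 1 and 8 UMIs, against 11.4 and 19.2 in *Lmo2*/*Mef2c* barcodes and 389 and 309 in *Cd3g* barcodes. Its ratio to the latter was 0.0102 (0.000259 to 0.0570) and 0.0508 (0.0219 to 0.100). *Cd3e*, with 1 UMI in each library, had 3.97 and 1.96 CPM against 85.1 and 88.0. Near-empty barcodes had 217 and 204 CPM of *Cd3d*. It had a UMI in 3.12% and 5.31% of Notch-side cells and in 4.45% and 5.42% of *Lmo2*/*Mef2c* barcodes. The low *Cd3g* was fixed by the rule. *Cd3d* and *Cd3e* were not used by it, but both were measured only through the *Cd3g* class, which fixed the direction of their ratio to it.

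Other T-cell genes were at different levels. Of 24 genes on a list of T-cell receptor and signalling genes, 22 were outside the rule. Against *Lmo2*/*Mef2c* barcodes, 9 were measured, of which *Trbc2*, *Trbc1* and *Tcrg-C4* were higher and none lower, where 0.419% of all genes measured were higher and 0.82% lower. The median log2 ratio was 1.22 and 0.96, against 0.02 and -0.01 over all genes. Against *Cd3g* barcodes, 15 were measured and 11 were lower, where 1.49% of all genes measured were lower, but *Cd28*, *Trdc*, *Thy1*, *Cd3d* and *Cd3e* were under 20 CPM in Notch-side cells in at least 1 library and were measured only through the *Cd3g* class. Of the 9 genes at 20 CPM or more in Notch-side cells of both libraries 6 were lower, with medians of -1.34 and -1.15, where 0.560% of the 4640 such genes over the whole table were lower, with medians of 0.06 and 0.03. *Cd3g* barcodes were chosen by a gene of the same complex, so this count describes where along the program the class was cut. *Lck*, the kinase that starts receptor signalling, had 71.5 (42.4 to 113) CPM in FL001 and 104 (78.0 to 136) in FL002, against 33.8 and 38.6 in progenitors and 282 and 227 in *Cd3g* barcodes, and was called only against *Cd3g* barcodes. *Lat*, the adaptor that follows it, had 143 and 134 CPM against 58.3 and 72.7 in progenitors and 171 and 226 in *Cd3g* barcodes and passed neither threshold. *Thy1*, a surface glycoprotein of T cells, had 3.97 and 7.86 CPM, from 1 and 4 UMIs, against 3.53 and 8.34 in progenitors and 100.1 and 91.3 in *Cd3g* barcodes. *Cd28*, a costimulatory receptor, had 0 UMIs in Notch-side cells, against 4.79 and 6.67 CPM in progenitors and 21.4 and 21.1 in *Cd3g* barcodes.

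The gamma constant regions had higher values in FL001 than in FL002. *Tcrg-C4* had 175 (127 to 235) CPM in FL001 and 88.4 (64.5 to 118) in FL002, against 37.6 and 24.6 in *Lmo2*/*Mef2c* barcodes and 377 and 308 in *Cd3g* barcodes. *Tcrg-C1* had 191 (141 to 253) CPM in FL001 and 90.4 (66.2 to 121) in FL002, and *Tcrg-C2* 147 (104 to 203) CPM in FL001 and 82.5 (59.5 to 112) in FL002. Both were lower than in *Cd3g* barcodes, where *Tcrg-C1* had 656 and 489 CPM and *Tcrg-C2* 512 and 497. Neither was called against *Lmo2*/*Mef2c* barcodes, where *Tcrg-C1* had 55.0 and 47.9 and *Tcrg-C2* 37.6 and 41.3. Between the libraries the intervals of Notch-side cells were apart for *Tcrg-C4* and *Tcrg-C1* and overlapped for *Tcrg-C2*. Without the cell with most UMIs of the gene in each library they overlapped for these genes too, at 146 (103 to 203) and 75.6 (53.5 to 104) CPM for *Tcrg-C4* and 137 (94.1 to 192) and 75.4 (53.3 to 103) for *Tcrg-C1*. *Tcrg-C1* had a UMI in 31.2% and 16.8% of Notch-side cells, with up to 15 UMIs in 1 cell of FL001. *Tcrg-C1* and *Tcrg-C2* are also near copies of each other. *Trdc*, the delta constant region, had 3.97 and 21.6 CPM against 116 and 139 in *Cd3g* barcodes, and *Rag1*, of the recombinase, had 11.9 and 7.86 against 25.4 and 27.0.

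Transcription factors of the T lineage other than those of the rule gave 1 call. Of 18 outside the rule, 11 were measured against *Lmo2*/*Mef2c* barcodes, none was higher, and *Id3*, an inhibitor of E proteins, was lower, with 0 and 13.8 CPM against 49.95 and 70.4, where 0.82% of all genes measured were lower. *Id3* was measured only through the *Lmo2*/*Mef2c* class. The medians were -0.09 and 0.20. *Runx1* had 115 and 138 CPM against 123 and 122 in progenitors and 128 and 175 in *Cd3g* barcodes. *Myb* had 242 and 204 against 137 and 146 in progenitors and 232 and 267 in *Cd3g* barcodes, and *Sox4* 377 and 358 against 223 and 249 in progenitors and 254 and 336 in *Cd3g* barcodes, all without a call. Against *Cd3g* barcodes 12 factors were measured and none was called, where 0.387% of all genes were higher and 1.49% lower.

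Of the surface receptors, *Cd7*, an immunoglobulin family receptor of lymphoid progenitors, and *Cd82*, a tetraspanin, were higher than in *Lmo2*/*Mef2c* barcodes, 2 of the 12 measured on a list of 20 cytokine, homing and adhesion receptors, with none lower, where 0.419% of all genes measured were higher. *Cd7* had 35.8 and 35.4 CPM against 10.3 and 12.1, so it was measured through Notch-side cells only, which fixed its direction. *Cd82* had 119 and 143 against 51.0 and 54.0. Neither call held without myeloid and *Pf4* barcodes in the comparison class, at log2 ratios of 1.01 and 0.96 for *Cd7* and 0.86 and 1.16 for *Cd82*, nor without the highest cell of each library. *Ccr7*, a homing receptor, was the 1 gene of 13 called lower than in *Cd3g* barcodes, where 1.49% of all genes measured were lower, with 0 and 1.96 CPM against 36.8 and 41.8, and was measured through that class only. *Il7r*, the interleukin-7 receptor, had 15.9 and 19.6 CPM, against 12.9 and 12.9 in progenitors and 36.2 and 25.8 in *Cd3g* barcodes, with no call.

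**Figure D2:**
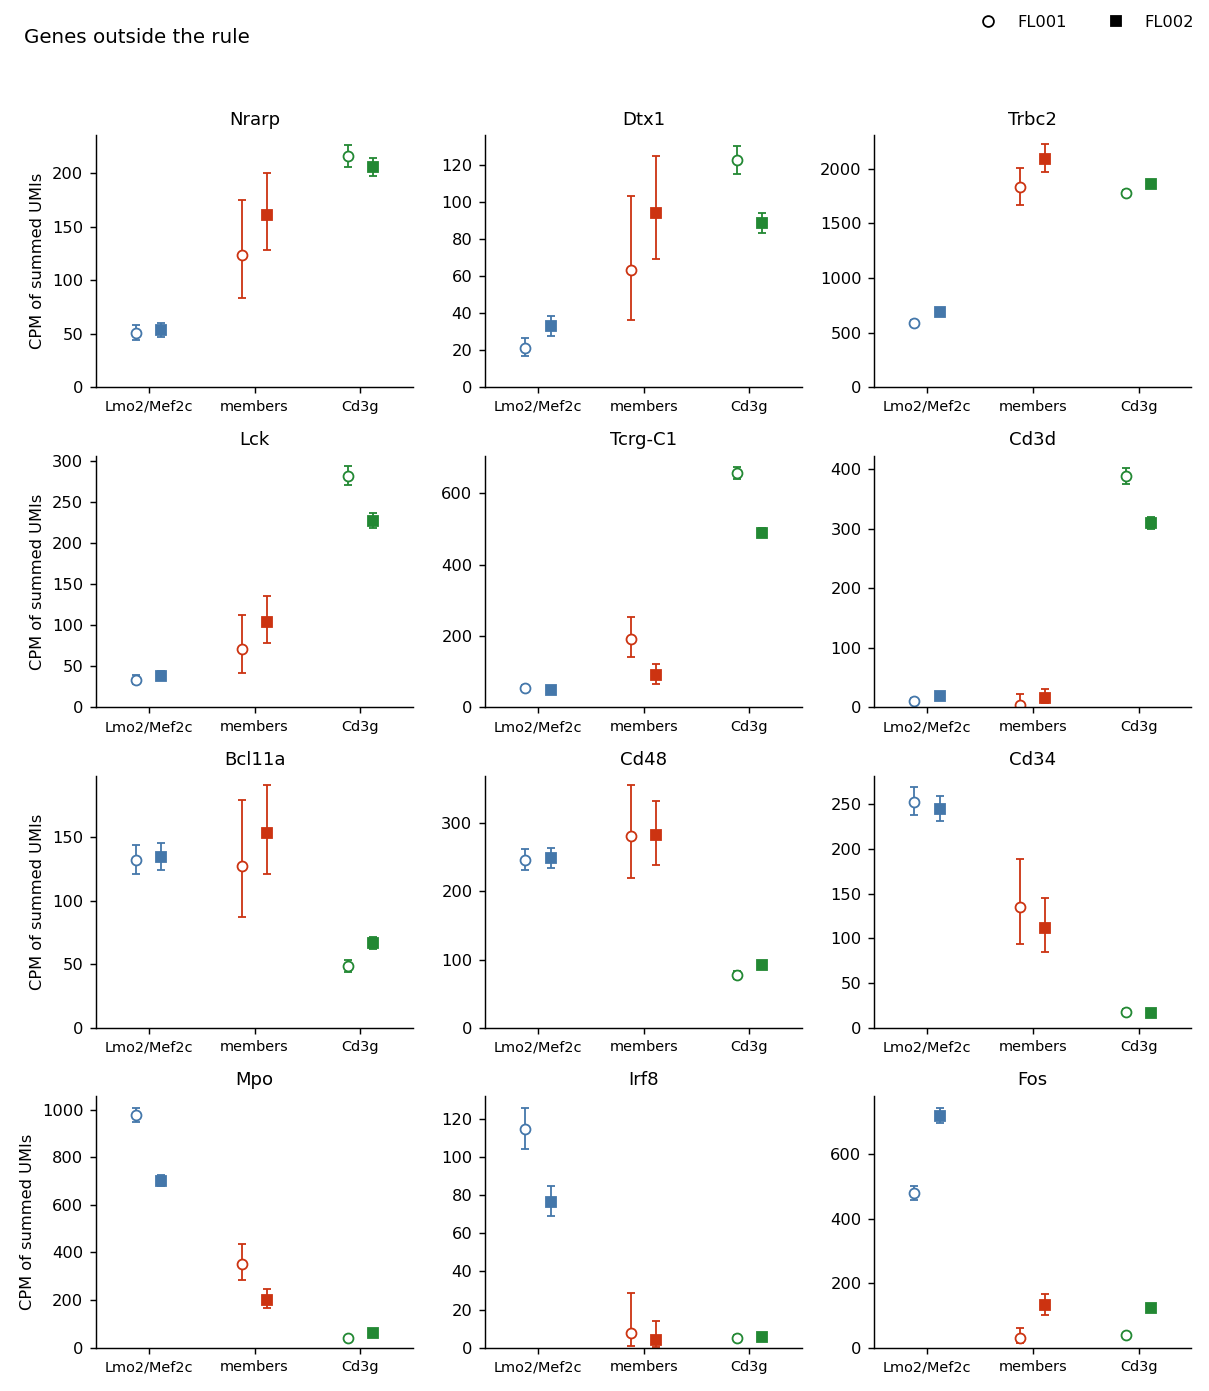
Levels (CPM of summed UMIs, vertical axes from 0) of 12 genes outside the rule in *Lmo2*/*Mef2c* barcodes, Notch-side cells (members) and *Cd3g* barcodes; circles are FL001, squares FL002, bars 95% exact Poisson intervals. *Trbc2* in Notch-side cells lay near the level of *Cd3g* barcodes, *Cd3d* near that of *Lmo2*/*Mef2c* barcodes, and *Bcl11a* and *Cd48* near that of *Lmo2*/*Mef2c* barcodes and over *Cd3g* barcodes.

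Several progenitor genes were near their level in *Lmo2*/*Mef2c* barcodes and higher than in *Cd3g* barcodes. *Bcl11a*, a factor needed for lymphoid progenitors, had 127 (87.0 to 179) CPM in FL001 and 153 (121 to 191) in FL002, beside 132 and 135 in *Lmo2*/*Mef2c* barcodes and 48.2 and 66.4 in *Cd3g* barcodes. The ratio was 0.964 (0.652 to 1.38) and 1.14 (0.887 to 1.44) to the former and 2.64 (1.78 to 3.78) and 2.31 (1.80 to 2.92) to the latter. *Mycn*, a Myc family factor, had 67.5 and 78.6 CPM against 73.2 and 63.6 in progenitors and 27.5 and 24.4 in *Cd3g* barcodes. Both were called higher than in *Cd3g* barcodes and neither differed by call from *Lmo2*/*Mef2c* barcodes. Of the 14 progenitor factors outside the rule, 7 were measured against *Cd3g* barcodes, these 2 were higher and none lower, where 0.387% of all genes measured were higher and 1.49% lower. The medians over the list were 0.88 and 0.88, against 0.02 and -0.0021 over all genes. Without the highest cell of each library, *Bcl11a* kept its call and *Mycn* did not, at log2 ratios of 0.86 and 1.28. *Hhex*, with 151 and 204 CPM against 170.0 and 171 in progenitors and 77.4 and 81.4 in *Cd3g* barcodes, and *Spi1*, which encodes PU.1, with 79.5 and 118 against 128 and 173 in progenitors and 37.1 and 59.6 in *Cd3g* barcodes, were not called on either side.

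Against *Lmo2*/*Mef2c* barcodes 11 factors were measured, and *Hlf* and *Gata2*, factors of stem cells and early progenitors, were lower and none higher, where 0.82% of all genes measured were lower and 0.419% higher. *Hlf* had 15.9 and 7.86 CPM, from 4 UMIs in each library, against 56.3 and 43.3, and *Gata2* had 7.95 and 7.86 against 37.3 and 29.8, so both were measured through the comparison class only. *Hoxa9* had 7.95 and 39.3 CPM against 76.4 and 84.6 and was not called, since it passed the limit of 2 times in FL001 only. *Lmo2*/*Mef2c* barcodes were themselves chosen by 2 genes of this program.

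Of the surface genes of progenitors, *Cd34* lay between the classes. *Cd34*, the sialomucin used to sort progenitors, had 135 (93.5 to 189) CPM in FL001 and 112 (84.8 to 145) in FL002. This was 0.534 (0.368 to 0.751) and 0.457 (0.344 to 0.597) times the level in *Lmo2*/*Mef2c* barcodes, 253 and 245 CPM, and 7.59 (5.07 to 11.1) and 6.78 (4.94 to 9.17) times that in *Cd3g* barcodes, 17.8 and 16.5 CPM. Near-empty barcodes had 65.0 and 88.1 CPM. *Cd48*, a SLAM family receptor, had 282 and 283 CPM, against 247 and 249 in progenitors and 77.0 and 92.4 in *Cd3g* barcodes, and *Ctla2a*, an inhibitor of cathepsins, had 306 and 271 against 308 and 299 in progenitors and 141 and 125 in *Cd3g* barcodes. These 3 of 9 measured genes of a list of 15 were higher than in *Cd3g* barcodes and none was lower, where 0.387% of all genes measured were higher and 1.49% lower. *Cd34*, under 20 CPM in *Cd3g* barcodes, was measured through Notch-side cells only, which fixed its direction there. Of 11 measured against *Lmo2*/*Mef2c* barcodes none was called, where 0.419% of all genes were higher and 0.82% lower. *Cd34* and *Cd48* kept the call without the highest cell of each library, and *Ctla2a* did not, at log2 ratios of 0.99 and 1.02. *Flt3*, the receptor lost as T-cell precursors advance, had 27.8 and 19.6 CPM from 7 and 10 UMIs, 4 of the 7 in 1 cell, against 54.5 and 52.7 in progenitors and 1.91 and 2.81 in *Cd3g* barcodes. The receptor *Kit*, by which the cells had been sorted, had 75.5 and 64.8 CPM against 71.1 and 66.7 in progenitors and 51.2 and 51.4 in *Cd3g* barcodes.

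The genes with the largest differences to *Lmo2*/*Mef2c* barcodes add others to these. In all, 23 genes were higher (0.419% of 5490) and 45 lower (0.82%). Of the 23, 10 were under 20 CPM in the comparison class in at least 1 library, and of the 45, 35 were so in Notch-side cells, so that they were measured only through the class where they were high. The 10 highest were *Trbc2*, *Tcrg-C4*, *Myl4*, *Scin*, *Dtx1*, *Rtp4*, *Slc9a9*, *Nrarp*, *Fgf3* and *Trbc1*. Of these, *Slc9a9* and *Fgf3* were under 20 CPM in *Lmo2*/*Mef2c* barcodes in at least 1 library, which fixed their direction. *Myl4*, a myosin light chain, had 91.4 (57.9 to 137) CPM in FL001 and 82.5 (59.5 to 112) in FL002, against 26.0 and 25.4 in *Lmo2*/*Mef2c* barcodes and 90.0 and 82.2 in *Cd3g* barcodes. *Scin*, the actin-severing protein scinderin, had 179 and 112 CPM against 44.7 and 42.1, and *Rtp4*, a receptor transport protein, 83.4 and 80.5 against 24.5 and 29.2. *Slc9a9*, a sodium/proton exchanger, had 83.4 and 70.7 against 18.2 and 25.8, and *Fgf3*, a fibroblast growth factor, 31.8 and 51.1 against 9.08 and 14.8. When barcodes with 10 or more myeloid UMIs or 3 or more *Pf4* UMIs were taken out of the *Lmo2*/*Mef2c* class, 12 of the 23 genes remained higher, *Trbc2*, *Tcrg-C4*, *Dtx1*, *Myl4*, *Scin*, *Rtp4*, *Slc9a9* and *Fgf3* among them, while *Nrarp*, at log2 ratios of 0.88 and 1.35, and *Trbc1*, at 0.98 and 1.01, fell just under the limit of 1 in FL001. When instead the cell with most UMIs of the gene was left out of each library, which by its construction lowers the levels, 8 of the 23 remained, *Trbc2*, *Tcrg-C4*, *Myl4*, *Scin*, *Rtp4* and *Slc9a9* among them. *Fgf3*, with 20.9 (6.80 to 48.9) and 45.5 (28.9 to 68.3) CPM without its highest cells, and *Trbc1* did not.

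Among the 10 lower genes with the largest differences were *Pf4*, *Irf8*, *Ccl3*, *Hspa1a*, *Fos*, *S100a9*, *Jun*, *Ccnd1* and *Klf2*. All of these but *Fos* and *Jun* were under 20 CPM in Notch-side cells in at least 1 library, which fixed their direction. *Pf4*, platelet factor 4, had 0 UMIs in FL001 and 2 in FL002, or 0 and 3.93 CPM, against 551 and 244. Most of that came from few barcodes of the comparison class, which had 4.79 and 4.18 CPM without myeloid and *Pf4* barcodes. *Irf8*, a factor of monocytes and dendritic cells, had 2 UMIs in each library, 7.95 and 3.93 CPM, against 115 and 76.5 in *Lmo2*/*Mef2c* and 4.90 and 5.72 in *Cd3g* barcodes. *S100a9*, of neutrophils, had 0 and 1.96 against 122 and 50.2, and the chemokine *Ccl3* 3.97 and 3.93 against 67.9 and 72.7. *Ccnd1*, cyclin D1, had 15.9 and 15.7 against 117 and 111, or 7.38 and 7.07 times lower. Of the 45 genes, 35 could only be lower, so the number that remains in a further comparison supports no direction. With the same myeloid and *Pf4* barcodes removed, which left 383 and 735 barcodes, 38 of the 45 genes remained lower. *Pf4* did not, as the removal by its own UMIs fixed, and neither did *S100a9*, at log2 ratios of -0.36 and 0.19, nor *Mpo*, at -0.44 and -1.17, whose loss the removal by other myeloid genes bears on. *Hspa1a* stayed past the limit of 2 times, with log2 ratios of -1.53 and -2.52, and lost the call only because its level in the class, 18.8 and 273 CPM, was under the minimum of 20 CPM in FL001.

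Against *Lmo2*/*Mef2c* barcodes, immediate early and heat shock genes were the list with the most lower genes. Of 15, 13 were measured against *Lmo2*/*Mef2c* barcodes, 7 were lower (*Fos*, *Fosb*, *Jun*, *Jund*, *Egr1*, *Dusp1* and *Hspa1a*) and none higher, where 0.82% of all genes measured were lower, with medians of -1.26 and -1.37 against 0.02 and -0.01 over all genes. *Fosb*, *Hspa1a* and *Egr1* were measured only through the *Lmo2*/*Mef2c* class. Of the 9 genes of the list at 20 CPM or more in Notch-side cells of both libraries 4 were lower, with medians of -1.06 and -0.98, where 0.216% of all 4640 such genes were lower. *Fos*, of the AP-1 complex, had 31.8 (13.7 to 62.6) CPM in FL001 and 132 (102 to 167) in FL002, against 481 and 719.6 in *Lmo2*/*Mef2c* barcodes, 15.1 and 5.47 times more, and 39.0 and 123 in *Cd3g* barcodes. In FL001 the level of *Fos* rests on 8 UMIs, 3 of them in 1 cell. *Jun*, its partner, had 59.6 and 129.7 against 319 and 676 in progenitors and 44.4 and 70.6 in *Cd3g* barcodes. *Hspa1a*, the inducible chaperone HSP70, had 0 and 39.3 against 42.6 and 304, while *Hspa8*, its constitutive relative, had 3699 and 3369 against 3459 and 3833. Against *Cd3g* barcodes none of 10 measured was called, where 0.387% of all genes were higher and 1.49% lower, with medians of -0.11 and -0.04. These genes also respond to cell handling, whose part was not tested.

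Against *Cd3g* barcodes 21 genes were higher (0.387% of 5430) and 81 lower (1.49%). Of the 21, 10 were measured only through Notch-side cells, and of the 81, 55 only through *Cd3g* barcodes. The 10 highest were *Cd34*, *Cnrip1*, *Rgs18*, *Mpo*, *Cd48*, *Tspan32*, *Plppr3*, *Cd81*, *Hoxa7* and *Tspan14*. Of these, *Cd34*, *Cnrip1*, *Rgs18*, *Tspan32*, *Plppr3* and *Hoxa7* were under 20 CPM in *Cd3g* barcodes in at least 1 library, which fixed their direction. *Cnrip1*, which binds the cannabinoid receptor, had 47.7 (24.6 to 83.3) CPM in FL001 and 45.2 (28.6 to 67.8) in FL002, against 3.58 and 7.35 in *Cd3g* barcodes and 53.2 and 54.8 in *Lmo2*/*Mef2c* barcodes. *Rgs18*, a regulator of G-protein signalling, had 83.4 and 74.7 CPM against 19.8 and 16.4 in *Cd3g* barcodes and 97.4 and 114 in progenitors. Of the tetraspanins, *Cd81* had 309.9 and 348 CPM against 97.8 and 129 in *Cd3g* barcodes, *Tspan32* 83.4 and 80.5 against 16.2 and 23.4, and *Tspan14* 79.5 and 78.6 against 20.7 and 26.5. *Hoxa7*, a homeobox factor, had 35.8 and 57.0 against 6.93 and 17.3 in *Cd3g* barcodes and 47.7 and 64.4 in progenitors, and *Plppr3* 47.7 and 47.1 against 6.69 and 11.6 in *Cd3g* barcodes and 46.7 and 31.5 in progenitors. Without the highest cell of each library 13 of the 21 genes remained higher, these 10 among them. Of these 10 genes only *Mpo* was also called against *Lmo2*/*Mef2c* barcodes, where it was lower.

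The 10 lower genes with the largest differences to *Cd3g* barcodes were *Cd3d*, *Timp2*, *Txk*, *Cd3e*, *Gal*, *Thy1*, *Cdh1*, *H19*, *Fam169b* and *Arpp21*. All of these but *H19* were under 20 CPM in Notch-side cells in at least 1 library, which fixed their direction. *Txk*, a Tec family kinase of T cells, had 3.97 and 5.89 CPM against 125 and 112, and *Thy1*, a surface protein of T-cell precursors, 3.97 and 7.86 against 100.1 and 91.3. *Gal*, the neuropeptide galanin, had no UMI in any Notch-side cell, against 52.1 and 52.8 CPM, which makes it at least 4.37 and at least 8.97 times lower when 3 UMIs per library are set as the level a count of 0 allows. *Timp2*, a metalloproteinase inhibitor, had 15.9 and 7.86 against 222 and 168, and *Cdh1*, E-cadherin, 0 and 3.93 against 112 and 68.7. *H19*, an imprinted noncoding RNA, had 39.7 (19.1 to 73.1) CPM in FL001 and 129.7 (100.3 to 165) in FL002, against 565 and 769 in *Cd3g* and 65.1 and 99.4 in *Lmo2*/*Mef2c* barcodes. In FL001 it had 10 UMIs, 4 of them in 1 cell. *Fam169b* had 3.97 and 5.89 against 89.1 and 77.9, and *Arpp21* 0 and 11.8 against 103 and 104. None of these 10 genes was called against *Lmo2*/*Mef2c* barcodes. *Bcl2*, which blocks apoptosis, was also lower, with 39.7 and 35.4 against 142 and 114.

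**Figure D3:**
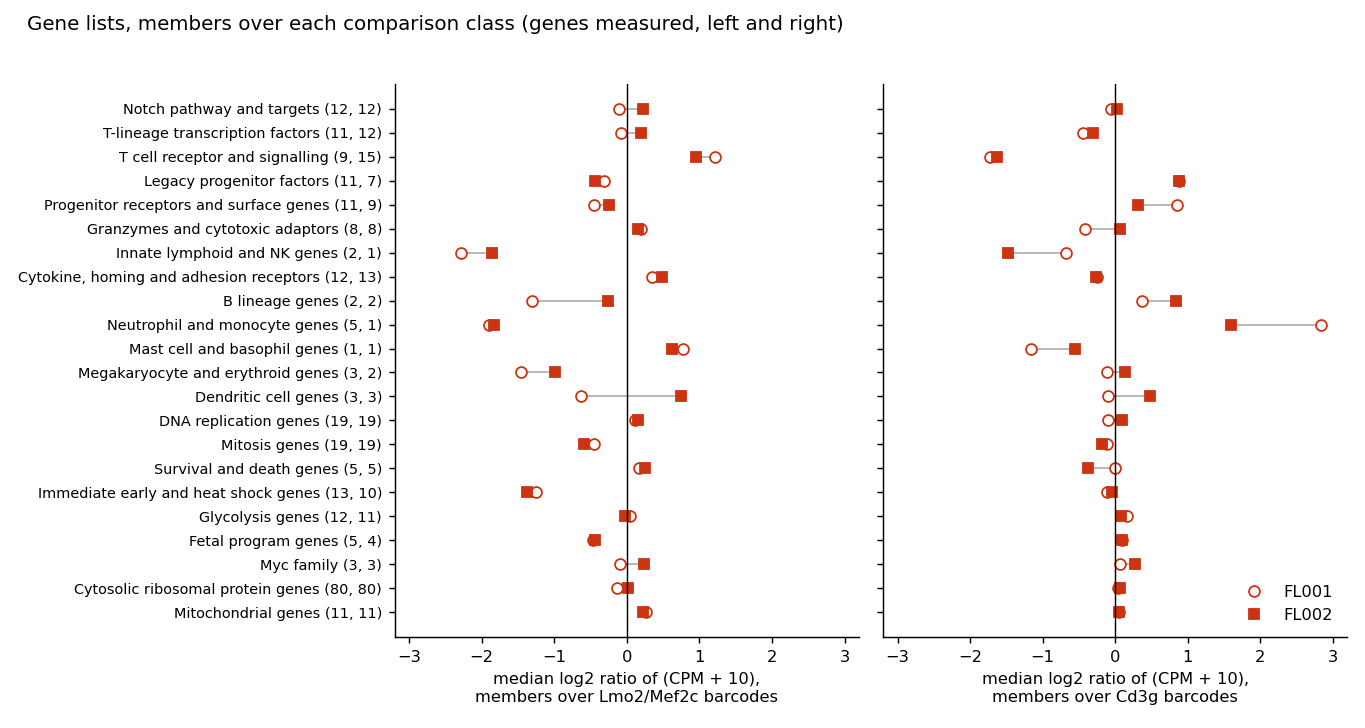
Median log2 ratio of (CPM + 10) over the measured genes of each list, Notch-side cells (members) over *Lmo2*/*Mef2c* barcodes (left) and over *Cd3g* barcodes (right); circles are FL001, squares FL002, and the number of genes measured in each comparison stands in brackets, so that medians over 1 to 3 genes rest on those alone. The T-cell receptor and signalling genes, at 1.22 and 0.96 over 9 genes on the left and -1.73 and -1.64 over 15 on the right, are not the same set on both sides, since 6 of the 15 were measured only through the *Cd3g* class.

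The 5 genes with the largest smallest ratio over both classes and both libraries were *Hemgn*, *Slc22a3*, *Tbxa2r*, *Slc9a9* and *Bex6*. *Hemgn*, a nuclear protein of blood cells, had 31.8 (13.7 to 62.6) CPM in FL001 and 37.3 (22.5 to 58.3) in FL002, against 8.33 and 12.5 in *Lmo2*/*Mef2c* and 10.99 and 13.6 in *Cd3g* barcodes. *Slc22a3*, an organic cation transporter, had 75.5 and 86.4 CPM against 37.8 and 38.8 in progenitors and 35.1 and 31.9 in *Cd3g* barcodes. *Tbxa2r*, the thromboxane A2 receptor, had 51.6 and 49.1 against 24.0 and 21.9 in progenitors and 18.5 and 24.3 in *Cd3g* barcodes, and *Bex6* 131 and 129.7 against 64.1 and 47.9 in progenitors and 65.4 and 72.7 in *Cd3g* barcodes. *Hemgn* rests on 8 and 19 UMIs, and its call against *Lmo2*/*Mef2c* barcodes ended without the highest cell of each library. By this threshold the class had no gene higher than in both others.

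Granzymes and cytotoxic adaptors other than *Gzma* gave 1 call. Of 19 genes outside the rule, 8 were measured. None was called against *Lmo2*/*Mef2c* barcodes, where 0.419% of all genes measured were higher and 0.82% lower, with medians of 0.20 and 0.15. Against *Cd3g* barcodes 1 was lower, where 1.49% of all genes measured were lower. That gene was *Fcer1g*, an adaptor of Fc receptors, with 103 and 136 CPM against 384 and 314. *Nkg7*, a granule membrane protein, had 207 (154 to 271) CPM in FL001 and 322 (275 to 375) in FL002, against 115 and 119.6 in progenitors and 309.9 and 347 in *Cd3g* barcodes, past 2 times the progenitors in FL002 only. The genes *Gzmd*, *Gzme*, *Gzmf*, *Gzmg*, *Gzmk*, *Gzmm*, *Gzmn* and *Prf1*, for perforin, had no UMI in Notch-side cells.

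Over all 28692 genes, 17328 (60.4%) had no UMI in any Notch-side cell, and marker lists of other cell types are given beside that share. Of 23 genes of innate lymphoid and natural killer cells outside the rule, 15 had no UMI in any Notch-side cell, among them the defining factors *Tbx21* and *Eomes* and the receptor *Ncr1*. The list summed to 59.6 and 88.4 CPM, against 180.1 and 236 in *Lmo2*/*Mef2c* barcodes, with 2 genes measured. *Ccl3* had 3.97 and 3.93 CPM against 67.9 and 72.7 and *Ccl4* 7.95 and 53.0 against 66.1 and 129.6. Both were called lower, but they were measured only through the *Lmo2*/*Mef2c* class, *Ccl4* because of FL001, which fixed the direction. Of 10 mast cell and basophil genes 8 were at 0, and *Cpa3*, the most abundant, had 47.7 and 70.7 CPM against 23.7 and 42.7 in progenitors and 119 and 109 in *Cd3g* barcodes. Of 16 megakaryocyte and erythroid genes 8 were at 0. Of 3 measured against *Lmo2*/*Mef2c* barcodes *Pf4* was lower, where 0.82% of all genes measured were lower. *Pf4* was measured only through the *Lmo2*/*Mef2c* class, which fixed its direction. *Car2*, the most abundant of the list, had 67.5 and 98.2 CPM against 162 and 164. Of 9 dendritic cell genes 4 were at 0, *Siglech*, *Itgax* and *Xcr1* among them, and the most abundant, *Cst3*, had 215 and 222 CPM against 359 and 301. The dendritic list summed to 366 and 566 CPM against 521 and 507, lower in FL001 and higher in FL002, with medians of -0.63 and 0.75 over 3 measured genes.

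Myeloid and B-lineage transcripts were not all absent. Of 15 neutrophil and monocyte genes outside the rule, 7 were at 0, and *S100a9*, *Mpo*, *Irf8* and *Ccl9* were lower than in *Lmo2*/*Mef2c* barcodes, 4 of 5 measured, where 0.82% of all genes measured were lower. Of these only *Mpo* reached 20 CPM in Notch-side cells, so the direction of the other 3 was fixed by the minimum, and the rule had limited other myeloid genes in Notch-side cells alone. The list summed to 421 and 283 CPM, and *Mpo*, the peroxidase of granules, made most of it, with 354 (284 to 435) CPM in FL001 and 202 (165 to 245) in FL002. This lay under 977 and 701 in *Lmo2*/*Mef2c* barcodes and over 40.7 and 60.2 in *Cd3g* barcodes, and was called in both comparisons. Without myeloid and *Pf4* barcodes *Lmo2*/*Mef2c* barcodes had 485 and 468 CPM of *Mpo*, and it was no longer called lower. *Mpo* had a UMI in 78.1% and 46.9% of Notch-side cells, against 74.6% and 64.1% of progenitors and 16.8% and 17.1% of *Cd3g* barcodes, and near-empty barcodes had 303 and 247 CPM. With 5% free RNA subtracted both calls were kept, though this equal subtraction could hardly have ended them. Of 11 B-lineage genes 4 were at 0, *Cd79a* and *Blnk* among them, and the list summed to 75.5 and 179 CPM, against 266 and 197 in *Lmo2*/*Mef2c* barcodes. *Ighm*, the most abundant, had 43.7 and 96.3 CPM.

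Genes of proliferation and metabolism were near the background of calls. None of 19 DNA replication genes and none of 19 mitosis genes was called in either comparison, where 0.419% of all genes were higher and 0.82% lower than in *Lmo2*/*Mef2c* barcodes and 0.387% higher and 1.49% lower than in *Cd3g* barcodes, so that 0 of 19 does not set these lists apart. The median of the mitosis genes was -0.45 and -0.59 against *Lmo2*/*Mef2c* barcodes and -0.11 and -0.18 against *Cd3g* barcodes, and that of the replication genes 0.11 and 0.15 against the former and -0.10 and 0.09 against the latter. *Top2a*, a topoisomerase of dividing cells, had 171 and 236 CPM against 359.5 and 361 in progenitors and 274 and 301 in *Cd3g* barcodes. Glycolysis genes had medians of 0.04 and -0.03 against progenitors and 0.16 and 0.07 against *Cd3g* barcodes, with no call. Of survival and death genes 5 were measured in each comparison, and only *Bcl2* was called, lower than in *Cd3g* barcodes, as were 1.49% of all genes. Of the Myc family 3 were measured and *Mycn* was the only call, higher than in *Cd3g* barcodes, as were 0.387% of all genes. Among 6 genes of the fetal program, *Hmga2*, a chromatin protein of fetal stem cells, was lower than in *Lmo2*/*Mef2c* barcodes and higher than in *Cd3g* barcodes, with 55.6 and 92.3 CPM against 354 and 338 in progenitors and 22.7 and 31.2 in *Cd3g* barcodes. In FL001 1 cell held 7 of its 14 UMIs, and without the highest cell of each library it was not called against *Cd3g* barcodes, at log2 ratios of 0.25 and 1.05. Over 80 cytosolic ribosomal protein genes the medians were -0.14 and 0.01 against progenitors and 0.04 and 0.07 against *Cd3g* barcodes. Over 11 mitochondrial genes they were 0.26 and 0.22 and 0.05 and 0.06 in the same order.

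Split by *Tcf7*, a gene of the rule, Notch-side cells differed in the levels of some genes, more clearly in FL001. With *Tcf7* at 0 there were 12 cells in FL001 and 48 in FL002, and with at least 1 UMI 20 and 65. *Cd34* had 327 (214 to 479) and 161 (114 to 222) CPM in the cells without *Tcf7* and 46.5 (20.1 to 91.5) and 69.4 (41.8 to 108) in those with it, intervals that do not overlap in either library. In FL001 1 cell without *Tcf7* held 12 of the 26 UMIs. Without the highest cell the cells lacking *Tcf7* had 199 (109 to 334) and 139 (95.01 to 196) CPM, still apart in FL001 and overlapping in FL002. *Trbc2* went the other way, with 1207 (978 to 1474) and 1899 (1727 to 2084) without *Tcf7* and 2126 (1913 to 2355) and 2262 (2087 to 2447) with it, and these intervals too did not overlap. Without the highest cell those with *Tcf7* had 1989.7 (1781 to 2216) and 2204 (2030.0 to 2389), apart in FL001 and overlapping in FL002. *Tyrobp* had 37.7 (7.78 to 110.2) and 174 (125 to 236) CPM without and 302 (226 to 396) and 248 (193 to 315) with *Tcf7*, apart in FL001 only. *Nrarp* did not differ beyond its intervals, with 101 (43.4 to 198) and 170.0 (121 to 231) without and 134 (84.7 to 200.4) and 153 (111 to 207) with *Tcf7*. The split was made on UMIs of the same cells, so these values are a description, and the median depth differed, with 5797 UMIs without and 8001.5 with *Tcf7* in FL001, and 4659.5 and 3911 in FL002.

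The class was also split by the allowed UMI of *Gzma*, *Khdc1a* or *Nrgn*. The 13 cells of FL001 and 46 of FL002 with none had 33.5 (6.91 to 97.9) and 24.9 (8.08 to 58.1) CPM of *Gzmb*, and the 19 and 67 cells with 1 had 37.0 (13.6 to 80.6) and 114 (79.1 to 158). The intervals were apart in FL002 alone, where 1 cell held 12 of the 35 UMIs. Without it that group had 75.7 (48.0 to 114) CPM, which overlaps. *Tyrobp* had 112 (53.5 to 205) and 154 (105 to 219) CPM in the former and 278 (202 to 371) and 253 (200.1 to 316) in the latter, and *Cd34* 223 (136 to 345) and 139 (92.6 to 201) in the former and 86.4 (47.2 to 145) and 94.1 (63.0 to 135) in the latter. The intervals of both genes overlapped in each library, as did those of *Trbc2*, with 1919.8 (1644 to 2229) and 2101 (1905 to 2311) in the former and 1789 (1589 to 2007) and 2089.7 (1931 to 2258) in the latter. Near-empty barcodes had 3922 and 2141 CPM of *Gzma*, so that 1 UMI may be free RNA, which was not tested.

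**Figure D4:**
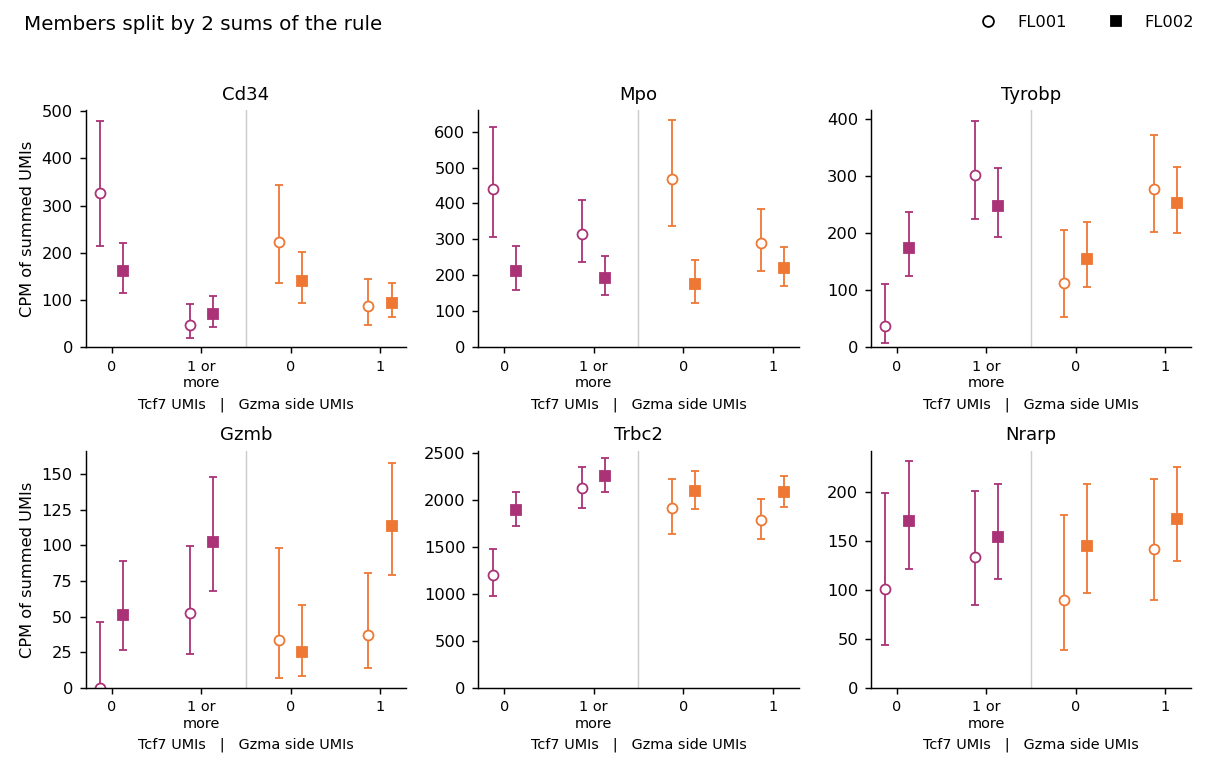
Levels (CPM of summed UMIs, vertical axes from 0) of 6 genes in Notch-side cells split by their *Tcf7* UMIs (left of each panel) and by their summed *Gzma*, *Khdc1a* and *Nrgn* UMIs (right, Gzma side); circles are FL001, squares FL002, bars 95% exact Poisson intervals. *Cd34* was higher and *Trbc2* lower in cells without *Tcf7* in both libraries, though in FL002 not beyond the intervals without the highest cell, and *Nrarp* did not separate the cells.

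Cells with 1 or 2 UMIs of *Cd3g*, 7 in FL001 and 31 in FL002, had 494 (336 to 701) and 282 (201 to 384) CPM of *Tyrobp*, against 127 (81.4 to 189) and 188 (146 to 238) in the 25 and 82 cells with none, and the intervals were apart in FL001 only. *Mpo* had 112 (44.9 to 229.9) and 183 (119.6 to 268) against 434 (345 to 539) and 209.8 (166 to 262), also apart in FL001 only, and *Trbc2* 1689.8 (1384 to 2044) and 2127 (1894 to 2381) against 1884 (1693 to 2090.0) and 2081 (1936 to 2234). For *Trbc2* the intervals overlapped in both libraries.

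Barcodes across the *Gzma* limit, which met every other limit and had at least 2 UMIs of *Gzma*, *Khdc1a* and *Nrgn*, outnumbered Notch-side cells, with 118 in FL001 and 272 in FL002. Of these 390 barcodes, 63 had 2 such UMIs and 253 had 5 or more, so most lay well past the limit. The barcodes across the limit had 110.1 and 158 CPM of *Gzmb*, 266 and 293 of *Tyrobp*, 1869 and 1857 of *Trbc2* and 188 and 201 of *Nrarp*. *Cd34* had 66.9 and 43.5 CPM there and *Mpo* 189 and 142, where Notch-side cells had 135 and 112 of *Cd34* and 354 and 202 of *Mpo*. *Cd3d* was low on both sides, with 6.16 and 25.3 CPM across the limit.

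The libraries differed from each other within the class. Of 5809 genes, 146 (2.51%) were at least 2 times higher in Notch-side cells of FL001 than of FL002, and 168 (2.89%) lower, in 1 library each and with no replicate check. The 5 largest differences toward FL001 were *Nhlrc2*, *Blvrb*, *Ddx3y*, *Gstp1* and *Tmem161a*, from 10 to 18 UMIs in FL001, 8 of the 14 of *Blvrb* in 1 cell, with 39.7 and 1.96 CPM of *Nhlrc2* and 55.6 and 7.86 of *Gstp1*. Toward FL002 they were *Scand1*, *Tgfb1*, *Hspa1a*, *Klf2* and *Hist1h2ap*. *Scand1* had 15.9 and 151 CPM in Notch-side cells, 8.07 and 185 in *Lmo2*/*Mef2c* and 11.6 and 192 in *Cd3g* barcodes, and *Tgfb1*, a growth factor, had 27.8 and 212 in Notch-side cells, 16.9 and 189.6 in progenitors and 11.8 and 128 in *Cd3g* barcodes. In FL001 *Tgfb1* rests on 7 UMIs of Notch-side cells, 3 of them in 1 cell. These 2 genes thus differed between the libraries in all 3 classes. *Klf2* had 15.9 and 114 CPM in Notch-side cells and 194 and 501 in *Lmo2*/*Mef2c* barcodes.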

How the data were processed

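Per the paper's methods, the authors processed 10X Chromium 3' libraries, sequenced on an Illumina NextSeq, with CellRanger, whose version is not given in the sources used here, and the submitters' processing notes name the build mm9. The authors deposited raw UMI counts per gene and barcode, without normalization or selection of cells, for FL001 (16320118 UMIs) and FL002 (22651783 UMIs). Barcodes of 1 to 100 UMIs gave the level of free RNA (907217 and 1124134 UMIs). No table of cell types was used.

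UMIs were summed per class and library, scaled to CPM, and compared as log2 of the ratio of CPM + 10, with numpy 2.4.6 and scipy 1.17.1. No test was made. Intervals were 95% exact Poisson for levels, exact binomial for shares and for ratios. The script was tested on simulated data. Doublets were not removed: Scrublet (scanpy 1.11.5) marked 7 and 1 barcodes at its own threshold, under 0.5% of each library, so it did not separate doublets, and leaving out the 5% highest scores was tried instead. Named genes were the genes of the rule, *Gzmb* and *Tyrobp*, list genes, first those past the threshold and, for other cell types, those at or near 0, the 10 with the largest difference per comparison and direction, the 5 highest over both classes and 5 each way between libraries. The cells and the 20 lists (326 entries) were chosen with earlier results of these data known. Alternatives changed the UMI minimum, the limits of the rule, the CPM floor, the scaling and the comparison classes. Positions are of GENCODE M21 (GRCm38), matched by identifier for 28339 of 28692 genes, and are not those of mm9, the build named by the submitters. The deposited identifiers look later than an annotation of mm9's time, so the build the authors used is uncertain. Of 362 named or listed genes, 73 overlap another gene on the same strand, so their counts are uncertain. Some genes that the rule for named genes would name are not reported here.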

Additional observations from a re-analysis of the deposited data

How the results depend on the processing

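Both libraries carry the same label and no condition was compared between them, so no samples were paired across conditions. Classes were compared within each library, without a test. Of 65 shares and counts under other settings, 42 stayed within their tolerance (the 95% interval of the share, 1.5 times a count). Of 40 mean log2 ratios of *Gzmb* and *Tyrobp*, 33 moved by less than 1 SD of the 2 libraries, a wide limit where the libraries differ; single libraries are not counted there, since each lies within 1 SD of their mean by construction. The share of Notch-side cells, 2.46%, was 3.36% with the rule read after thinning to 1500 UMIs, 1.43% with a Notch sum of at least 3, 1.002% with *Gzma*, *Khdc1a* and *Nrgn* at 0, 1.82% with *Cd3g* at 0, and 1.79 to 2.76% in single libraries. The 23 genes higher and 45 lower than in *Lmo2*/*Mef2c* barcodes became 66 and 88 with the thinned rule, 50 and 75 with 1 CPM added, and 14 and 26 with a minimum of 50 CPM. The 23 became 36 with the mean of each barcode's CPM, and 12 without myeloid and *Pf4* barcodes in the comparison class, chosen after seeing the data. The 21 genes higher than in *Cd3g* barcodes became 10 with the thinned rule, 46 with 1 CPM added and 34 with the mean per barcode. A single library, which need not be borne out by the other, gave more genes, FL001 alone the most, with 57 to 96 higher and 74 to 174 lower than in *Lmo2*/*Mef2c* barcodes and 59 to 123 higher and 109 to 226 lower than in *Cd3g* barcodes. Genes also change: with the thinned rule 16 of the 23 genes remained higher, and with *Cd3g* at 0 in the class 12 did, and with the thinned rule 6 of the 21 genes remained higher than in *Cd3g* barcodes. Without the cell with most UMIs of each gene, chosen after seeing the data, 8 of the 23 and 13 of the 21 remained. With 5% free RNA subtracted all 23, 45, 21 and 81 genes kept their call. The same share was taken from both classes, which could hardly end a call, so this supports nothing.

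The mean log2 ratio of *Gzmb* to *Lmo2*/*Mef2c* barcodes, 1.01, was 1.56 with the thinned rule, 0.28 without the highest cell of each library, and 0.74 and 1.28 in single libraries. Against *Cd3g* barcodes it was -0.47 (SD 1.07), with -1.23 in FL001 and 0.28 in FL002, so its sign differed between the libraries. The mean log2 ratio of *Tyrobp* to *Lmo2*/*Mef2c* barcodes, -0.05, was 0.14 with the thinned rule, -0.20 without the highest cell of each library, -0.51 with *Cd3g* at 0 and 0.24 without comparison barcodes that met the *Cd3g* limit or held 10 or more myeloid UMIs, so its sign changed among settings. Against *Cd3g* barcodes *Tyrobp* had 0.46, and 0.0014 with *Cd3g* at 0. The causes were not tested. Depth sets the limits: with 32 cells in FL001, 1 UMI is worth 3.97 CPM, so genes under 20 CPM in both classes were not compared. Intervals of shares and levels cover counting error only, and 2 libraries whose time points are not stated give no replicate error for the class.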

Other observations

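*Ebf1* and *Ly6d*, chosen after their values were seen, were uneven between the libraries. *Ebf1*, a factor of B cells, had 0 and 29.5 CPM in Notch-side cells of FL001 and FL002, against 18.4 and 13.55 in *Lmo2*/*Mef2c* barcodes and 1.55 and 1.73 in *Cd3g* barcodes. It was found in 0 of 32 cells of FL001 and in 6 of 113 cells of FL002, 1 of which held 8 of the 15 UMIs. *Ly6d*, a surface gene of lymphoid progenitors, had UMIs in 1 Notch-side cell, 5 of them, in FL002. The counts are too small for a statement on the class. The 0 of 32 cells allows a share of cells with an *Ebf1* UMI of up to 10.9% (95% exact binomial interval), which is no limit on cells that express it. *Zbtb16*, the innate lymphoid factor PLZF, had 23.8 and 7.86 CPM in Notch-side cells, 9.84 and 8.13 in *Lmo2*/*Mef2c* barcodes and 44.2 and 39.8 in *Cd3g* barcodes.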
